A study of Mus musculus with 2 samples.

Results

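Smooth muscle cells form the contractile layer of vessel walls, and 173 capture spots of a mouse liver section held their transcripts at the highest density. These spots were chosen by the measured share of 3 smooth muscle genes: Acta2 (smooth muscle alpha actin), Tagln (transgelin, an actin-binding protein) and Myh11 (smooth muscle myosin heavy chain). All spots of the HFD section with at least 5000 unique molecular identifiers (UMIs, one per captured RNA molecule) were ranked by the UMIs of the 3 genes divided by all UMIs of the spot, and the top 5% were taken, with ties settled by file order. The 173 muscle-rich spots came from 3469 spots of that depth, from 3594 spots over tissue in the section and from 7286 spots over tissue in both sections of the study. They were compared with 2001 spots of the same section and depth that had 0 UMIs of the 3 genes, here called muscle-free spots. The remaining 1295 spots had some UMIs of the 3 genes and a share below the limit.

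In the liver, smooth muscle lies around branches of the hepatic artery and the portal vein and around larger hepatic veins. The portal tract that carries the artery and the portal vein also holds bile ducts, lymphatic vessels, nerve fibres and a connective tissue made by portal fibroblasts. Sinusoids, the capillaries between hepatocytes, have no muscle layer, and their supporting cells are hepatic stellate cells, which can turn on Acta2 when activated.

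The section came from 1 male C57BL/6J mouse of the HFD group, bought at 5 weeks of age, fed a 60% high-fat diet for 14 weeks and then given distilled water by mouth for 8 weeks as the untreated arm of a drug study. A second section came from 1 mouse of the same strain and sex in the NCD group, the control diet, with the same schedule of water. Fresh frozen liver was cut at 10 µm and measured with 10x Visium, in which tissue lies on a slide of barcoded spots, each wide enough for several cells. The labels also call the samples a hematopoietic stem cell line and immune cells, which does not match a section whose muscle-free spots held 129164 CPM (UMIs of a gene per 1000000 UMIs of the pooled spots) of 7 hepatocyte genes such as Alb.

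With 1 section of 1 mouse per diet there was no replicate and no test. Values are pooled CPM and log2 ratios of pooled CPM, and every interval is an exact 95% interval that covers counting error only, since spots of a section share an animal, a slide and a library. A gene was counted as higher or lower at a 2-fold ratio. Depth was similar in both groups. The muscle-rich spots had 5624 to 54167 UMIs (median 15081, 3142650 in all) and the muscle-free spots 5024 to 58587 (median 17040, 37135664 in all), with 5.61% and 5.53% mitochondrial UMIs. The NCD section stood apart: its 1300 spots off tissue had a median of 3383 UMIs against 4187.5 over tissue, while the HFD slide had 1175.5 against 18549. Both sections shared 3173 barcodes over tissue, which name positions of the slide layout and not cells.

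The 3 genes that set the ranking were spread unevenly over the muscle-rich spots. Their summed UMIs per spot ran from 2 to 107 with a median of 8, which gave 220 to 5504 CPM with a median of 450. The last spot inside the limit had 5 UMIs of 22694 (220.3 CPM) and the first spot outside had 5 of 22702 (220.2 CPM), so the limit lay in a continuous range. Of the 173 spots, 128 had at least 5 UMIs of the 3 genes, 73 at least 10, 34 at least 20 and 8 at least 50. These spots held 51.6% of the UMIs of the 3 genes and 4.38% of all UMIs. UMIs of all 3 genes were found in 87 spots and of at least 2 genes in 158. Acta2 had 0 to 55 UMIs per spot (median 4), Tagln 0 to 45 (median 4) and Myh11 0 to 13 (median 1). Off the tissue of the HFD slide the 3 genes reached 45.9 CPM (37.4 to 55.9), a level measured without tissue and pooled over spots. The lowest share of a muscle-rich spot, 220 CPM, was set by the limit, so the 2 values cannot be compared as a check. Whether spots with few UMIs of the 3 genes stood above such a level was not tested.

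**Figure D1:**
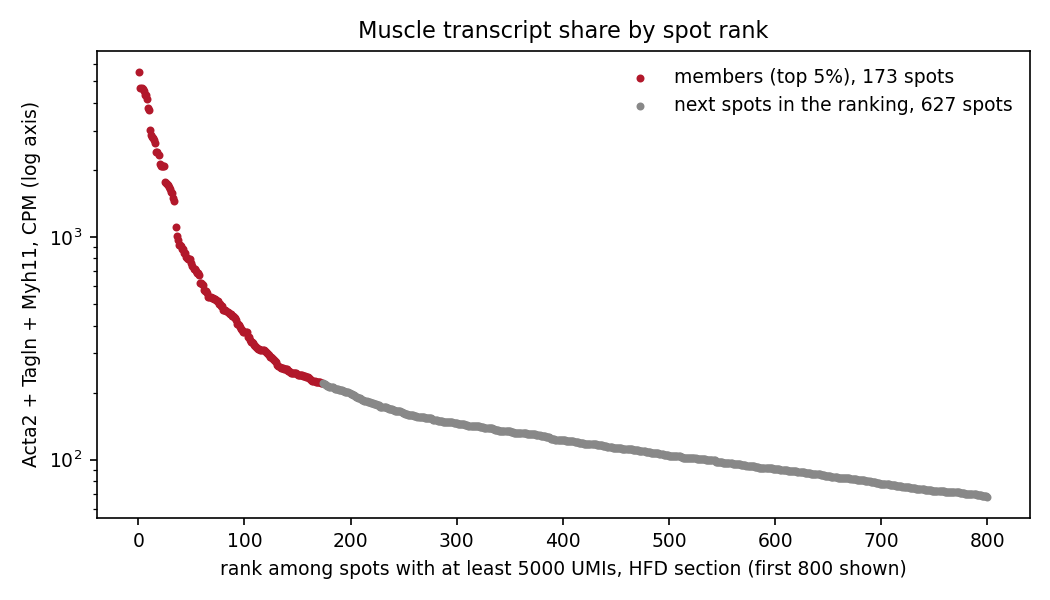
Share of Acta2, Tagln and Myh11 in CPM (log axis) for the 800 highest ranked spots of the HFD section. Red points are the 173 muscle-rich spots, from 5504 down to 220 CPM, and grey points the spots that follow without a gap.

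The 3 genes were also checked against each other. When spots were ranked by 2 of them, the left-out gene was not part of the choice. Ranked by Tagln and Myh11, the top 173 spots had 350 CPM of Acta2 against 10.3 CPM in spots without the other 2 genes, a log2 ratio of 5.09 (4.93 to 5.25). Tagln, left out in turn, had a log2 ratio of 4.30 (4.15 to 4.45) and Myh11 5.35 (4.95 to 5.77). In the NCD section the same steps gave 5.99 for Acta2, 5.09 for Tagln and 5.52 for Myh11. In the HFD section, 135, 138 and 160 of the 173 spots so ranked were muscle-rich spots, with Acta2, Tagln and Myh11 left out in turn. The 3 genes chose the muscle-rich spots, so they do not test the label. The spots were not pure muscle: the same 7 hepatocyte genes stood at 126958 CPM in the muscle-rich spots, a log2 ratio of -0.02 (-0.03 to -0.02). In pooled spots, fewer cells of a type and less RNA per cell cannot be told apart.

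Over all genes, 9012 passed a filter of 5 CPM on the mean of both groups, with the 3 ranking genes left out. Of these, 613 (6.80%) were at least 2-fold higher in the muscle-rich spots and 58 (0.644%) at least 2-fold lower, and the median log2 ratio was 0.05. A gene scarce in the muscle-free spots could pass the filter only through the muscle-rich spots, so counts of members that passed describe the lists and support nothing.

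Genes of the contractile apparatus, other than the 3 that set the ranking, were higher together in the muscle-rich spots. Their sum was 1270 CPM against 304 CPM, a log2 ratio of 2.07 (2.01 to 2.12). Of 19 members 18 passed the filter, 16 of them were at least 2-fold higher beside 6.80% of all genes, and the median was 2.86. Detection at full depth hardly separated the groups. A UMI of the list was found in 100% of the muscle-rich and 97.2% of the muscle-free spots. With every spot drawn down to 5000 UMIs, detection did differ. The shares were then 97.7% (94.2% to 99.4%) of the muscle-rich and 77.8% (75.9% to 79.6%) of the muscle-free spots. At full depth the muscle-rich spots had a median of 17 UMIs of the list. Cnn1 encodes calponin 1, an actin-binding brake on smooth muscle myosin (GRCm38 chr9:22099216-22109630). It had 0 to 12 UMIs per muscle-rich spot with a median of 0, and was found in 80 of the 173 spots (46.2%) and in 19 of the 2001 muscle-free spots (0.95%). Pooled, Cnn1 stood at 71.9 against 0.539 CPM, a log2 ratio of 7.06 (6.40 to 7.80), the highest of all genes under the naming rule. Actg2, the gamma actin of visceral smooth muscle, had 0 to 8 UMIs per spot, was found in 73 muscle-rich spots and had a log2 ratio of 6.20 (5.59 to 6.88). Synpo2, an actin-bundling protein of muscle, had 31 UMIs in the muscle-rich and 8 in the muscle-free spots, a ratio of 5.52 (4.36 to 6.85).

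Myosin regulation and the cytoskeletal frame showed the same direction. Lmod1, which starts actin filaments in smooth muscle, had a log2 ratio of 5.32 (4.65 to 6.04), and Pdlim3, a partner of alpha-actinin, 5.38 (4.77 to 6.05). Des, the intermediate filament desmin, had 0 to 13 UMIs per spot and a ratio of 4.22 (3.90 to 4.55). Ppp1r14a, an inhibitor of myosin phosphatase, had 3.22 and its counterpart Ppp1r12b, a subunit of that phosphatase, 1.65. Flna, which crosslinks actin, had 3.03, and the tropomyosin genes Tpm1 and Tpm2 had 1.79 and 2.17. The 2 members that passed the filter and stayed below 2-fold were Mylk, the myosin light chain kinase, at 0.97 (0.71 to 1.22) and Cald1, caldesmon, at 0.22 (0.08 to 0.35). Cald1 was also well detected without muscle, at 139 CPM in the muscle-free spots against 161 CPM.

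Myl9, the regulatory light chain of smooth muscle myosin (GRCm38 chr2:156775420-156781658), was the contractile gene found in most muscle-rich spots among those leading the ratios: it had 0 to 30 UMIs per spot with a median of 2, and was found in 136 spots (78.6%) against 226 muscle-free spots (11.3%). Its log2 ratio was 4.70 (4.49 to 4.92), and the NCD section had 4.71 (4.22 to 5.20). When every spot was drawn down to 5000 UMIs, Myl9 was found in 52% of the muscle-rich spots (44.3% to 59.7%) and in 3.35% of the muscle-free spots (2.6% to 4.23%). The CArG box is the DNA element bound by serum response factor, known for control of smooth muscle genes. The window searched reached 250 bases before the gene start, on both strands. RefSeq promoters were at hand for 19 of the 22 ranking and contractile genes, without Tagln, Myh11 and Actg2, which were not searched. An exact box was found in 1 of the 22 promoters of these 19 genes, against 482 of 32851 promoters in all (1.47%). The match lay in Myl9, starting 161 bases before the RefSeq gene start, and is shown because it is the only one among the 19 genes searched, at GRCm38.p6 chr2:156775273-156775342, plus strand, 5′ to 3′, with the box in capitals.
Myl9: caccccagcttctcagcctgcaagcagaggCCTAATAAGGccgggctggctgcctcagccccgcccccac
The match is a description of letters in this window and not of a bound site.

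Tnnt2 encodes cardiac troponin T, the tropomyosin-binding part of the heart's troponin complex (GRCm38 chr1:135836354-135852260). It had 0 to 11 UMIs per muscle-rich spot, was found in 60 of the 173 spots and in 14 of the 2001 muscle-free spots, and had 38.8 against 0.377 CPM, a log2 ratio of 6.69 (5.88 to 7.60). The other 8 genes of the list of heart and skeletal muscle were at or near 0: in the muscle-rich spots Actc1, cardiac actin, had 1 UMI, and Acta1, Ckm, Myh4, Tnnt3, Myh6, Myl7 and Mb had 0 UMIs, which allows up to 3 UMIs each. Tnnt2 was the only member of that list with more than 1 UMI there. In the NCD section it had 25 UMIs in the muscle-rich and 7 in the muscle-free spots, a log2 ratio of 6.28 (5.03 to 7.74).

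Receptors and channels that set muscle tone differed less than the contractile genes. Their sum was 134 CPM against 112 CPM, a log2 ratio of 0.26 (0.11 to 0.41). Of 18 members 6 passed the filter, 2 of them at least 2-fold higher beside 6.80% of all genes. Both encode soluble guanylate cyclase, the receptor for nitric oxide: Gucy1a1 had a ratio of 1.86 (1.41 to 2.30) and Gucy1b1 1.59 (1.05 to 2.10). Agtr1a, the angiotensin receptor, had -0.40 (-0.68 to -0.12) and Adra1b, an adrenergic receptor, -0.49 (-0.90 to -0.10). Agtr1a held 27% of the list's UMIs in the muscle-rich and 42.7% in the muscle-free spots, and without it the list had a ratio of 0.61 (0.43 to 0.78). Channel genes typical of muscle were scarce, and Cacna1c, the voltage-gated calcium channel, had 7 UMIs in the muscle-rich and 3 in the muscle-free spots.

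Regulators of the muscle programme differed less than the contractile genes. The list stood at 104 against 53.8 CPM, a log2 ratio of 0.95 (0.77 to 1.12). Of the 7 members that passed, of 12, 3 were at least 2-fold higher beside 6.80% of all genes. Myocd, the myocardin cofactor of serum response factor, had 2 UMIs in the muscle-rich spots and 0 UMIs in the muscle-free spots. Srf itself had a ratio of 0.35 (-0.34 to 0.98). Heyl, a target of Notch in mural cells, had 3.06 (2.32 to 3.78), Tcf21 1.46 (0.98 to 1.92) and Klf4 1.01 (0.45 to 1.53). Among pericyte and mural genes, Notch3, the receptor that maintains arterial muscle, had 0 to 3 UMIs per spot and a ratio of 3.56 (2.98 to 4.15), and Pdgfrb, the PDGF receptor of mural cells, had 2.0 (1.58 to 2.40). Rgs5, a pericyte marker, had -0.02 (-0.32 to 0.28), and the list as a whole 0.85 (0.70 to 1.00), or 1.31 (1.13 to 1.49) without Rgs5.

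The 30 genes with the highest ratios joined muscle genes to matrix and lymphatic genes. Of the 30, 15 were in one of the lists. Cpe, a carboxypeptidase that trims peptide hormones, came second, with 0 to 8 UMIs per spot, 67 muscle-rich spots with a UMI against 14 muscle-free spots, and a log2 ratio of 6.78 (5.98 to 7.69). Cilp and Ccn3, both secreted matrix proteins, had 6.15 (5.42 to 6.96) and 6.03 (5.09 to 7.11). Ankrd1, a nuclear and sarcomeric protein induced by stretch, had 5.44 (4.59 to 6.37). Mgp, matrix Gla protein, an inhibitor of vessel calcification (GRCm38 chr6:136872435-136875823), had 0 to 41 UMIs per spot with a median of 3, was found in 136 spots and had a ratio of 5.26 (5.08 to 5.45). Ptgis, the prostacyclin synthase of vessel walls, had 4.14 (3.68 to 4.61), the lowest of the 30.

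**Figure D2:**
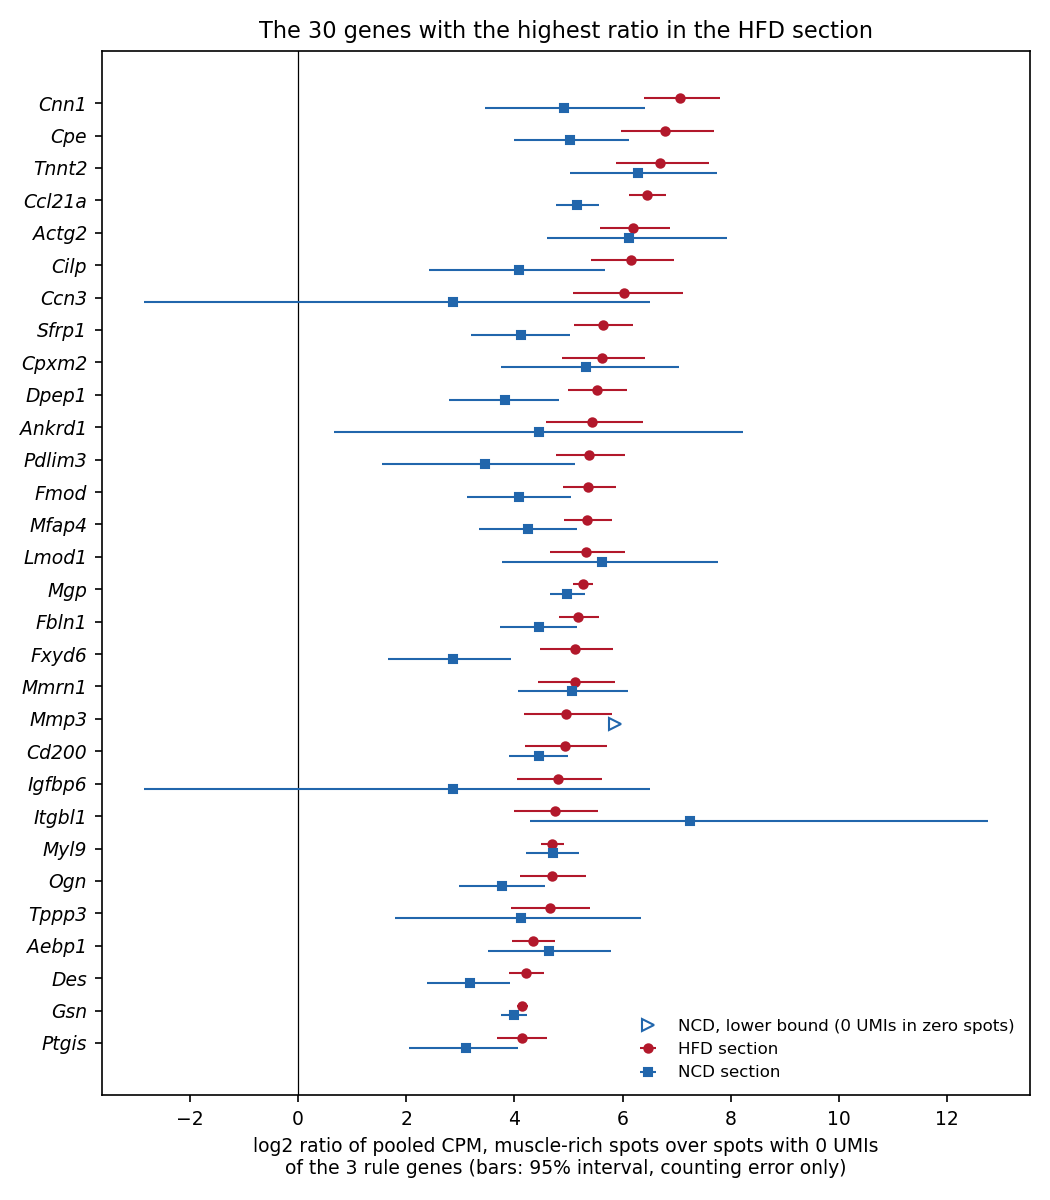
Log2 ratio of pooled CPM, muscle-rich over muscle-free spots, for the 30 genes with the highest ratio in the HFD section (red circles), with the NCD section beside them (blue squares, and an open triangle where the NCD muscle-free spots had 0 UMIs). Bars are 95% intervals for counting error, and HFD values run from 4.14 for Ptgis to 7.06 for Cnn1.

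Elastic fibre genes were higher in the muscle-rich spots. They summed to 644 against 120 CPM, a log2 ratio of 2.42 (2.35 to 2.50). Of the 11 members that passed, of 14, 10 were at least 2-fold higher beside 6.80% of all genes. Eln, the elastin that lets vessel walls recoil, had 0 to 8 UMIs per spot, was found in 69 spots and had a ratio of 4.03 (3.62 to 4.44). Fbln1 and Mfap4, proteins of microfibrils and elastic fibres, had 5.18 (4.82 to 5.56) and 5.35 (4.91 to 5.80). Loxl1, which crosslinks elastin, had 3.66 (3.35 to 3.96). The exception was Efemp1, a fibulin, at 0.23 (-0.31 to 0.73).

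Interstitial collagens stood at 950 against 223 CPM, a log2 ratio of 2.09 (2.03 to 2.15). Of the 13 members that passed, of 14, 12 were at least 2-fold higher beside 6.80% of all genes, and the median was 2.14. Col1a1, a chain of the main fibrillar collagen, had 0 to 21 UMIs per spot and a ratio of 2.70 (2.53 to 2.88), and Col3a1, the collagen of distensible tissue, had 0 to 41 UMIs and 2.08 (1.97 to 2.18). Col6a2, a chain of microfibrillar collagen, had 3.24 (2.87 to 3.59). Col5a3 was the member that passed without reaching 2-fold, at 0.19 (-0.33 to 0.66). The small proteoglycans that bind collagen had a list ratio of 1.34 (1.29 to 1.39), and 2.13 (2.07 to 2.20) without Dcn, and among them Fmod and Ogn had 5.37 and 4.70, while Dcn, decorin, found in 170 of the 173 spots, had 0.52 (0.44 to 0.61). Basement membrane genes had a list ratio of 1.52 (1.43 to 1.62), led by Lamb2, a laminin chain of muscle and vessel basement membranes, at 3.61 (3.32 to 3.90).

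Genes used as markers of portal fibroblasts stood at 860 against 58.8 CPM, a log2 ratio of 3.87 (3.79 to 3.95). A single gene, Gsn, held 74.7% of the list's UMIs in the muscle-rich spots, and the ratio without it was 3.27 (3.12 to 3.42). All 6 members that passed, of 9, were at least 2-fold higher beside 6.80% of all genes. Gsn, gelsolin, which severs actin filaments and is also made by muscle, had 0 to 85 UMIs per spot with a median of 7 and a ratio of 4.15 (4.05 to 4.25). Dpt, dermatopontin, a matrix protein of fibroblasts, had 0 to 14 UMIs per spot and 3.97 (3.76 to 4.18). Thy1, a surface marker of portal fibroblasts, had 3.94 (3.41 to 4.49). The list of hepatic stellate cell genes differed little by comparison, at 541 against 470 CPM and a log2 ratio of 0.20 (0.13 to 0.27). In it Lrat, which stores vitamin A as ester, had -0.91 (-1.62 to -0.28) and Reln, reelin, 0.28 (0.04 to 0.52), while Igfbp3 had 1.29 (1.05 to 1.53).

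The list of lymphatic vessel genes stood at 252 against 23.1 CPM, a log2 ratio of 3.45 (3.30 to 3.59), and was mostly a measure of Ccl21a. That gene held 77.9% of the list's UMIs in the muscle-rich and 9.67% in the muscle-free spots, and without it the list had a ratio of 1.42 (1.17 to 1.65). Ccl21a, the chemokine by which lymphatic endothelium draws dendritic and T cells (GRCm38 chr4:42772860-42773993), had 0 to 41 UMIs per spot with a median of 1, was found in 100 muscle-rich spots against 61 muscle-free spots, and had a ratio of 6.45 (6.12 to 6.80). The gene has near-identical copies, so its reads may have been shared among them in counting. Mmrn1, multimerin of lymphatic endothelium, had 5.13 (4.44 to 5.86), and Flt4, a VEGF receptor that sinusoids express too, 0.52 (0.19 to 0.84).

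Blood vessel endothelium showed a mixed picture. Genes shared by all endothelia had a list ratio of 0.43 (0.29 to 0.56), with 0 of 6 members at 2-fold beside 6.80% of all genes. Arterial genes had 1.10 (0.83 to 1.37), and 2.01 (1.65 to 2.36) without Gja4, with low counts: Gja5, a gap junction protein of arterial endothelium, had 19 UMIs in the muscle-rich and 4 in the muscle-free spots, a ratio of 5.81 (4.22 to 7.83), Bmx, an arterial kinase, had 12 and 2 UMIs, and Gja4 had 0.12 (-0.36 to 0.57). Large vein genes had 1.34 (1.17 to 1.52), and 0.73 (0.49 to 0.95) without Vwf, von Willebrand factor, with 0 to 8 UMIs per spot and 2.88 (2.57 to 3.18). Central vein endothelial Wnt genes had 0.10 (-0.16 to 0.35), and -0.34 (-0.74 to 0.04) without Thbd, and of these Rspo3, which amplifies Wnt signals, had -2.01 (-3.47 to -0.87) with 6 UMIs in the muscle-rich spots. Sinusoidal endothelial genes were lower as a list, at 309 against 413 CPM and -0.42 (-0.51 to -0.32). Stab2, a scavenger receptor of sinusoids, had -1.22 (-1.64 to -0.82) and Bmp2 -1.16 (-1.77 to -0.61), and Stab1, which macrophages also express, had 0.94 (0.73 to 1.14).

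Bile duct list transcripts were found in 86.7% of the muscle-rich spots and in 70.5% of the muscle-free spots. The list stood at 564 against 132 CPM, a log2 ratio of 2.10 (2.02 to 2.18). All 6 members that passed, of 8, were at least 2-fold higher beside 6.80% of all genes. Krt19, a keratin of bile duct epithelium, had 0 to 4 UMIs per spot, was found in 27 spots and had a ratio of 3.30 (2.66 to 3.94). Spp1, osteopontin, which macrophages also make, had 0 to 90 UMIs and 2.02 (1.94 to 2.11). Spp1 held 85.3% of the list's UMIs in the muscle-rich and 90% in the muscle-free spots, so a spot's duct share was largely its Spp1 share. Without Spp1 the list had a ratio of 2.65 (2.43 to 2.87), and a UMI of the other duct genes was found in 52.6% of the muscle-rich and 16.2% of the muscle-free spots. Of the 173 spots, 29 (16.8%) were also among the top 5% of the section by share of the duct list, which made up 4.99% of all spots of that depth. With these 29 spots left out of the muscle-rich side only, the duct ratio was 0.99 (0.87 to 1.11) and the contractile ratio 2.20. The muscle-free spots kept any duct-rich spots they had, so a lower duct ratio follows from this choice. In the 23 muscle-rich spots with 0 UMIs of the duct list, set against the 590 muscle-free spots with 0 UMIs of it, the contractile ratio was 2.37 (2.20 to 2.53) and the portal fibroblast ratio 4.54 (4.31 to 4.76).

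Nerve transcripts were few and denser in the muscle-rich spots. The list of nerve and Schwann cell genes had 56 UMIs in the muscle-rich and 64 UMIs in the muscle-free spots, a log2 ratio of 3.37 (2.83 to 3.91), spread over 43 of the 173 spots with at most 3 UMIs in any. Sox10, the Schwann cell transcription factor, had 6 UMIs in 6 spots and 0 UMIs in the muscle-free spots. L1cam, an adhesion molecule of axons, had 12 and 5 UMIs, a ratio of 4.83 (3.22 to 6.68). The mesothelial markers of the liver surface, Msln, Upk3b, Upk1b and Lrrn4, had 0 UMIs in the muscle-rich spots, and the list's 17 UMIs came from Gpm6a and Wt1. That list had a ratio of 2.19 (1.29 to 3.03), and 1.45 from 3 UMIs without Gpm6a. The adipocyte list had 14 UMIs, 13 of them Cfd, and -0.95 (-1.83 to -0.18), and the mast cell list had 1 UMI against 2 UMIs.

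Immune genes differed in both directions. Kupffer cell genes, the resident macrophages of sinusoids, were lower at 93.9 against 238 CPM, a log2 ratio of -1.34 (-1.52 to -1.18). Clec4f, their C-type lectin, had 0 to 3 UMIs per muscle-rich spot and was found in 37 of 173 spots (21.4%) against 1073 of 2001 muscle-free spots (53.6%), a ratio of -2.06 (-2.53 to -1.63). Vsig4, a complement receptor, had -2.20 (-3.08 to -1.44), the lowest of all genes tested. Genes of lipid-associated macrophages had a list ratio of 0.97 (0.83 to 1.10), with 3 of 5 members at least 2-fold higher beside 6.80% of all genes. Trem2 was among them at 1.17 (0.83 to 1.49), and Gpnmb had 1.00 (0.70 to 1.29). MHC class II genes, which present antigen, stood at 2157 against 744 CPM, a ratio of 1.54 (1.50 to 1.57). All 5 members were at least 2-fold higher beside 6.80% of all genes, and Cd74 had 0 to 85 UMIs per spot. T cell genes had 109 UMIs in the muscle-rich spots and a ratio of 1.83 (1.51 to 2.14). The B and plasma cell ratio of 1.73 (1.53 to 1.93) leaned on a single spot, which held 24.9% of its 273 UMIs, and was 1.33 without it. Without Igkc, an immunoglobulin light chain that held 81.3% of the list's UMIs, the ratio was 0.46 (0.01 to 0.88). Neutrophil genes had 0.19 (-0.32 to 0.66).

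Blood transcripts were higher in the pool, but unevenly. Haemoglobin genes with Alas2 stood at 3315 against 1232 CPM, a ratio of 1.43 (1.40 to 1.46), and Hbb-bs, a beta globin, had up to 312 UMIs in a spot. The heaviest spot held 5.75% of the list's UMIs and the ratio was 1.35 without it. Off the tissue of the same slide the list stood at 3829 CPM, above the muscle-rich spots, with a ratio of muscle-rich spots over spots off tissue of -0.21 (-0.25 to -0.17). Its part in the result was not tested. Within zone groups the ratio over muscle-free spots was 1.84 and 1.81 in the periportal and middle groups and 0.08 (-0.08 to 0.24) in the pericentral group (position along the lobule, read from hepatocyte genes). Whether red cells lay in a lumen beside the wall could not be read from these counts, and spot positions were not used here.

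Secreted regulators of vessel walls were among the higher genes. The TGF-beta and BMP list had a log2 ratio of 1.3 (1.22 to 1.39). Of the 12 members that passed, of 18, 7 were at least 2-fold higher beside 6.80% of all genes. Tgfb3, a ligand, had 3.24 (2.66 to 3.81), Acvrl1, its endothelial receptor family member, 2.24 (1.80 to 2.66), Ltbp3, which binds latent ligand, 2.56 (2.17 to 2.94), and Ccn2, a target gene also called connective tissue growth factor, 2.70 (2.51 to 2.89) with 0 to 19 UMIs per spot. The Wnt and hedgehog list had 2.20 (2.0 to 2.41), and 1.14 (0.86 to 1.42) without Sfrp1, of which 3 of 12 members passed. Sfrp1, a secreted Wnt inhibitor, had 0 to 7 UMIs per spot and 5.63 (5.10 to 6.20), and Dkk3 2.64 (2.16 to 3.11). Ptch1, the hedgehog receptor, had -0.54 (-1.20 to 0.05), and Gli1 and Gli2, its transcription factors, had 3 and 2 UMIs in the muscle-rich spots and 0 UMIs in the muscle-free spots.

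**Figure D3:**
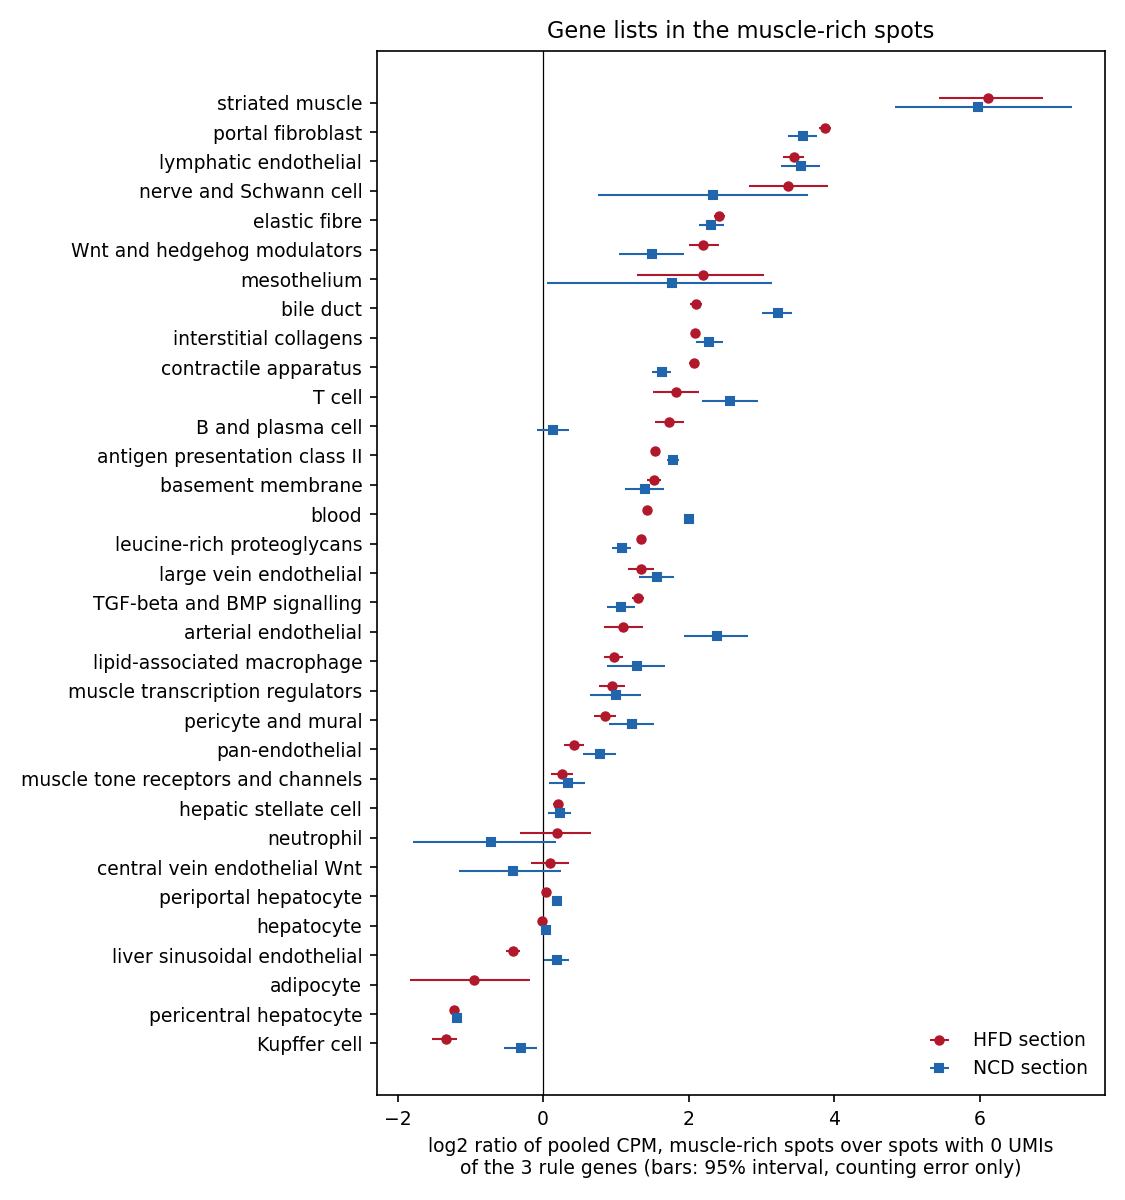
Log2 ratio of pooled CPM for 33 gene lists, muscle-rich over muscle-free spots, in the HFD section (red circles) and by the same rule in the NCD section (blue squares), ordered by the HFD value, with no NCD value for the adipocyte list. Bars are 95% intervals for counting error; portal fibroblast and lymphatic lists lie near the top in both sections, pericentral hepatocyte and Kupffer cell lists at the bottom of the HFD values.

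The 10 genes with the lowest ratios named what the muscle-rich spots held less of. Besides Vsig4 and Clec4f they included the major urinary protein genes Mup7 and Mup11, at -1.81 (-2.88 to -0.91) and -1.76 (-2.43 to -1.17), whose near-identical copies may share reads, and Slc1a2, a glutamate transporter of pericentral hepatocytes, at -1.51 (-1.82 to -1.21). In the muscle-free spots Slc1a2 was found in 1077 of 2001 spots (53.8%) against 60 of 173 muscle-rich spots (34.7%). Pericentral hepatocyte genes as a list stood at 3063 against 7176 CPM, a ratio of -1.23 (-1.26 to -1.20), and 5 of their 6 members were at least 2-fold lower beside 0.644% of all genes. Cyp2e1, the pericentral cytochrome, had -1.22 (-1.25 to -1.19) and Glul, glutamine synthetase of the last cells around the central vein, -0.90 (-1.0 to -0.80). Periportal hepatocyte genes were nearly level at 0.04 (0.02 to 0.07).

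The place of the muscle-rich spots along the lobule was read from hepatocyte genes that played no part in the ranking. A zone index, the pericentral UMIs divided by pericentral plus periportal UMIs, was computed for each spot, and all 3469 spots were cut into 3 equal groups at 0.463 and 0.711. Of the 173 muscle-rich spots, 96 lay in the periportal group (55.5%, 47.8% to 63%), 62 in the middle group (35.8%) and 15 in the pericentral group (8.67%, 4.93% to 13.9%). The muscle-free spots lay the other way, with 23.7% periportal and 40.4% pericentral. The median index was 0.443 and 0.662. Cyp2e1 held 76.9% of the pericentral UMIs in the muscle-rich and 76.4% in the muscle-free spots. Without it the pericentral list had a log2 ratio of -1.26 (-1.32 to -1.20). The periportal list was nearly level at 0.04, so the index differed mainly through the pericentral genes. Depth differed along the axis, with median UMIs of the muscle-rich spots of 19984.5, 12420.5 and 12110 from the periportal to the pericentral group. Over all 3469 spots the medians were 24936, 15322.5 and 17424.5. A choice of spots with 0 UMIs of the 3 genes is in part a choice of lower depth, and its part in the muscle-free shares was not tested.

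**Figure D4:**
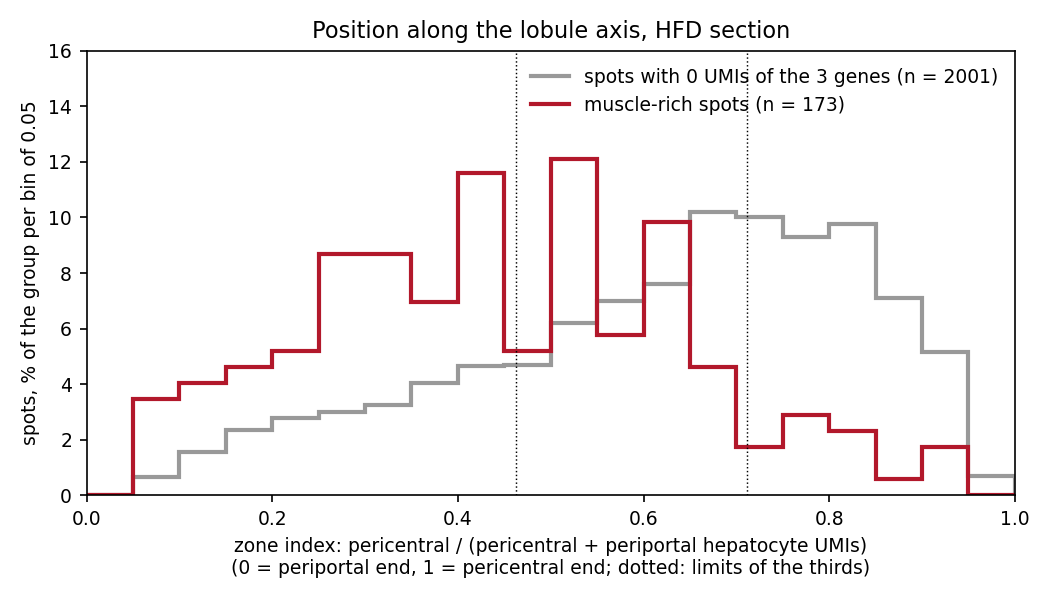
Share of spots by zone index in bins of 0.05, for the 173 muscle-rich (red) and 2001 muscle-free (grey) spots of the HFD section, with dotted lines at 0.463 and 0.711. The muscle-rich spots lie toward the periportal end (median 0.443) and the muscle-free spots toward the pericentral end (median 0.662).

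Within each zone group the muscle-rich spots again had higher contractile and fibroblast genes. Set against muscle-free spots of the same zone group, the contractile ratio was 2.23 (2.16 to 2.30) in the periportal, 1.93 (1.83 to 2.04) in the middle and 1.46 (1.24 to 1.68) in the pericentral group. The portal fibroblast ratio was 3.85 (3.73 to 3.98), 3.63 (3.47 to 3.79) and 2.26 (1.82 to 2.67), and without Gsn 3.32, 3.23 and 1.70. The lymphatic ratio was 3.66, 3.51 and 2.0 in the same order, and without Ccl21a 1.79 (1.45 to 2.12), 1.24 (0.73 to 1.71) and 0.36 (-1.10 to 1.50), the last from 6 UMIs. The Kupffer cell ratio was -1.57, -0.87 and -0.57. Lipid-associated macrophage genes without Cd9 had 0.47 (0.24 to 0.70), 1.02 (0.70 to 1.33) and 2.38 (1.91 to 2.82), the last from 45 UMIs. Large vein genes had 1.66 (1.42 to 1.89), 1.3 (0.93 to 1.66) and -0.31 (-1.52 to 0.68), the last from 8 UMIs, and without Vwf 0.94, 0.69 and -0.63.

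Periportal and pericentral muscle-rich spots were then compared with each other, on 96 and 15 spots. The 3 ranking genes stood at 780 and 518 CPM. Contractile genes had a log2 ratio of periportal over pericentral spots of 0.64 (0.42 to 0.87), portal fibroblast genes 1.95 (1.55 to 2.39), elastic fibre genes 1.32 (0.94 to 1.73) and bile duct genes 2.41 (1.87 to 3.0). In the other direction, Kupffer cell genes had -1.31 (-1.86 to -0.71) and genes of lipid-associated macrophages -0.68 (-1.09 to -0.24). The latter list had -1.20 (-1.67 to -0.70) without Cd9. Hepatic stellate cell genes did not differ beyond counting error, at 0.09 (-0.21 to 0.39). Among single genes chosen by the naming rule, Cyp2a5, a cytochrome, had -2.93 (-3.31 to -2.54) and Gstm2, a glutathione transferase, -2.42 (-2.91 to -1.93). The groups were split by hepatocyte zone genes, so any hepatocyte gene that follows the same axis differs by the split itself. Such values describe the zone and not the muscle. The 10 genes named on the periportal side all had 0 UMIs in the 15 pericentral spots, a small pool. Their ratios were undefined and so not ranked among themselves. Those with most UMIs were Lsp1, an actin-binding protein of leukocytes, and Igha, an immunoglobulin heavy chain. Lsp1 had 108 UMIs in the periportal spots, a log2 ratio of at least 1.80 against a limit of 3 UMIs, and Igha had 78 UMIs.

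The muscle-rich spots were not uniform, and levels differed along their own ranking. They were cut into 4 parts of 43, 43, 43 and 44 spots by muscle share, the first being the lowest. Contractile genes stood at 563, 721, 1147 and 3236 CPM, in the order of the ranking, which is itself a measure of muscle. Elastic fibre genes stood at 339, 402, 801 and 1195 CPM and portal fibroblast genes at 452, 488, 1285 and 1353 CPM. The lymphatic list stood at 87.7, 105, 350 and 549 CPM, most of it Ccl21a at 59.5, 77.4, 276 and 443 CPM, and its other genes at 28.2, 27.6, 74.4 and 106 CPM. Without Gsn, the portal fibroblast genes stood at 127, 120, 307 and 349 CPM. Tnnt2 stood at 6.26, 9.67, 41.9 and 121 CPM. The bile duct list stood at 636, 741, 497 and 333 CPM, a course set by Spp1 at 561, 632, 416 and 265 CPM. Its other genes stood at 75.2, 109, 80.2 and 68.2 CPM, with intervals of the second and last part that overlapped, and the duct keratin Krt19 at 8.35, 16.6, 11.6 and 16.6 CPM. Kupffer cell genes stood at 149, 66.3, 73.3 and 68.2 CPM. Blood genes stood at 1607, 2784, 2288 and 8144 CPM. A single spot set much of the first value, which was 995 CPM without it, while the last was 7423 CPM without its heaviest spot. The median spot had 445, 771, 873 and 5464 CPM. In the 174 spots just below the limit, the contractile list stood at 430 CPM and the duct list at 415 CPM, between the muscle-free spots and the first part.

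**Figure D5:**
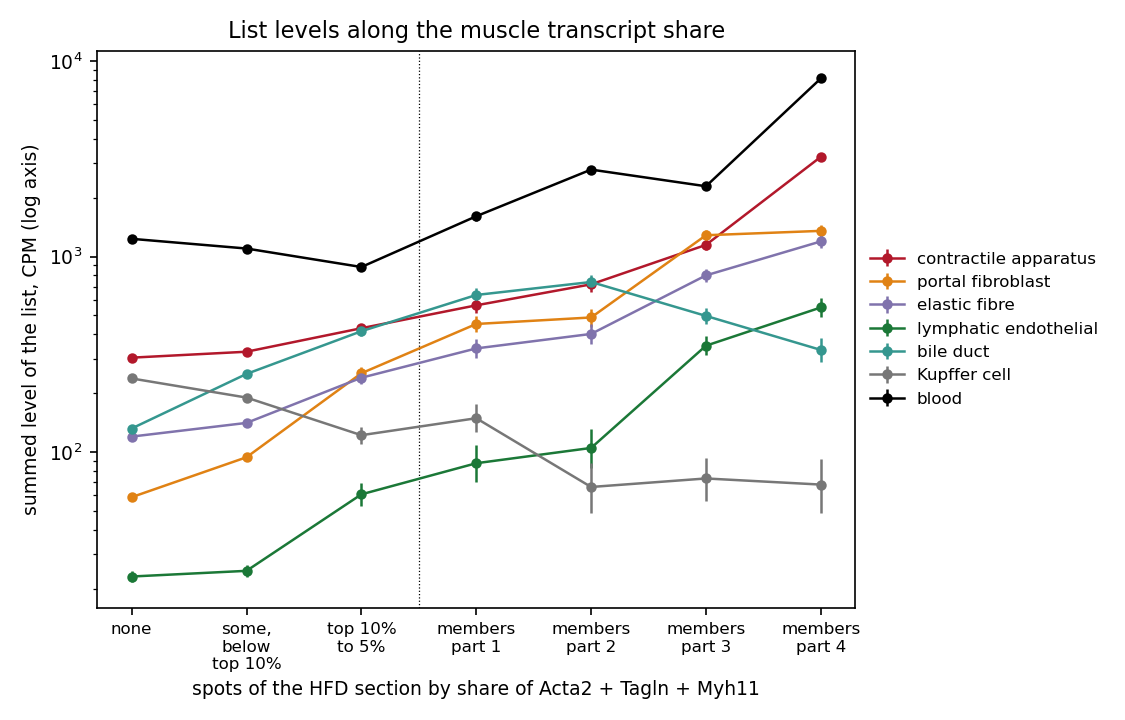
Summed CPM (log axis) of 7 gene lists in spots of the HFD section ordered by muscle share, from spots without muscle UMIs (left) to the 4 parts of the muscle-rich spots (right of the dotted line). Bars are exact Poisson 95% intervals; contractile genes reach 3236 CPM in the last part, while the bile duct list, mostly Spp1, has 741 CPM in the second part and 333 CPM in the last.

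Across the 173 spots, the muscle share and the contractile share had Pearson's r of 0.92 and Spearman's rho of 0.81. For elastic fibre genes the values were 0.51 and 0.58, for Tnnt2 with its list 0.56 and 0.53, for portal fibroblast genes 0.30 and 0.54, and for bile duct genes -0.14 and -0.13. These are descriptions, since the spots share a library and all shares have the depth of the spot below the line.

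The 10 spots with the highest share showed what the densest muscle looked like. They had 29 to 107 UMIs of the 3 genes, 8 lay in the periportal and 2 in the middle group, and their contractile UMIs ran from 27 to 158. All 10 had portal fibroblast UMIs, from 5 to 51, and blood UMIs, from 5 to 437 with a median of 206. Duct UMIs were few, 0 to 8 with a median of 2. The spot at the top of the ranking had 83 UMIs of the 3 genes among 15081, with 158 contractile, 64 elastic fibre, 32 lymphatic, 8 arterial and 437 blood UMIs and 2 duct UMIs. Hepatocyte transcripts were in every one, at 642 to 2782 UMIs of the 7 genes.

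Collagen also occurs away from muscle, and 100 muscle-free spots with the highest share of Col1a1, Col1a2 and Col3a1 served as the nearest comparison. These spots lay differently along the lobule, with 19 periportal, 31 middle and 50 pericentral spots. Against them the muscle-rich spots had a log2 ratio of 1.77 (1.65 to 1.89) for contractile genes, 1.98 (1.83 to 2.14) for portal fibroblast genes, 1.44 (1.29 to 1.60) for elastic fibre genes and 2.73 (2.37 to 3.12) for lymphatic genes, which was 1.08 (0.60 to 1.58) without Ccl21a. The interstitial collagens, 3 of which chose the comparison spots, differed by only 0.42 (0.32 to 0.52). Among collagens, Col3a1 had -0.01 and Col6a3, which was not used, 1.32 (0.91 to 1.76). Stellate cell genes had -0.09 (-0.21 to 0.02) and tone receptors and channels -0.08 (-0.31 to 0.16), both intervals holding 0. Kupffer cell genes were again lower, at -1.36 (-1.58 to -1.14).

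The same rule in the NCD section gave 85 muscle-rich spots of 1695 with that depth, set against 1461 muscle-free spots. The 85 spots had 1 to 20 UMIs of the 3 genes with a median of 4, at a lower depth (median 9999 UMIs), and 159 to 2205 CPM. Acta2 stood at 169 CPM and Tagln at 207 CPM, beside 379 and 303 CPM in the HFD spots, and Myh11 at 82.3 beside 75.1 CPM. Off the tissue of that slide the 3 genes stood at 44.4 CPM (39.5 to 49.7) and over all its tissue at 24.8 CPM. The part of this signal off tissue in the NCD values was not tested. Diet, animal, section, slide and depth cannot be told apart, so values are given side by side. Of 8362 genes tested, 753 (9.01%) were at least 2-fold higher, and the median log2 ratio was 0.09. Of the 30 leading genes of the HFD section, 21 passed the filter in the NCD section, and all 21 were at least 2-fold higher there. A gene scarce in the NCD muscle-free spots could pass that filter only through the muscle-rich spots, so this count supports nothing. With the genes of lower counts included, all 30 were at least 2-fold higher or had 0 UMIs in the NCD muscle-free spots. An interval above 0 was found for 28, the exceptions being Ccn3 and Igfbp6 with 1 UMI each. Of 400 genes at least 2-fold higher in the HFD section and tested in both, 318 (79.5%) were at least 2-fold higher in the NCD section, where 8.04% of the genes tested in both were. The filter acts on scarce genes in these counts in the same way.

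List by list the sections were mostly alike in direction. Contractile genes had 1.63 (1.50 to 1.76) in the NCD section beside 2.07 in the HFD section, portal fibroblast genes 3.57 (3.37 to 3.76) beside 3.87, lymphatic genes 3.54 (3.27 to 3.80) beside 3.45 (without Ccl21a, 1.76 beside 1.42), and collagens 2.28 (2.10 to 2.47) beside 2.09. Bile duct genes had 3.22 (3.01 to 3.42) beside 2.10, or 2.81 (2.26 to 3.34) beside 2.65 without Spp1, and arterial genes 2.39 (1.94 to 2.82) beside 1.10. Cd200, a surface glycoprotein of endothelium and immune cells, had 58 UMIs in the 85 NCD spots and 57 UMIs in the 173 HFD spots. Kupffer cell genes had -0.30 (-0.54 to -0.08) beside -1.34, and Clec4f -0.18 (-0.63 to 0.25) beside -2.06. B and plasma cell genes had 0.13 (-0.09 to 0.35) beside 1.73, or -1.08 beside 0.46 without Igkc. None of these differences between sections was tested.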

How the data were processed

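The authors made the deposited files with Space Ranger 1.3.1, which aligned reads, counted UMIs and called spots over tissue; the build is mm10 in the submitters' processing notes and the annotation is not given in the sources used here. The values are raw counts of UMIs per gene and spot, deposited without normalization. Spot positions and images were not used here.

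Here UMIs were summed over spots and divided by all their UMIs (CPM). Ratios have exact conditional binomial intervals, sums exact Poisson and shares exact Clopper-Pearson intervals, all at 95%. Limits from 0 used 3 counts, pooled over the group. Depth was equalised by drawing spots to 5000 UMIs (seed 1). Genes named are those of 35 lists, the 30 highest (at least 50 UMIs in the muscle-rich spots) and 10 lowest ratios, and 10 each way between zone groups. The rule, members and lists were chosen with earlier results of these data known. Gene positions are GENCODE M21 on GRCm38. Alternatives changed depth, share, comparison spots, ranking genes, CPM total, weighting, filter, members and list genes. Code was tested on simulated data. Scripts ran in Python 3.11.15 with pandas 2.3.3, scipy 1.17.1, matplotlib 3.10.9 and numpy 2.4.6.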

Additional observations from a re-analysis of the deposited data

Results flagged for a closer look

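Genes of liver sinusoidal endothelium had a log2 ratio of muscle-rich over muscle-free spots of -0.42 under HFD and 0.19 under NCD, with intervals on opposite sides of 0. The 7 hepatocyte genes did the same on a much smaller scale, at -0.02 and 0.04. Both patterns depended on 1 gene of the list. Without Stab1, the sinusoidal genes had -0.66 (-0.77 to -0.56) under HFD and 0.05 (-0.15 to 0.24) under NCD, the latter holding 0. Without Alb, the hepatocyte genes had -0.07 and -0.20, the same sign. Neither difference between the sections was tested, and with 1 section per diet neither can be. Of the 10 sinusoidal genes, 2 were at least 2-fold lower in the HFD section, Stab2 and Bmp2, beside 0.644% of all genes. UMIs of Acta2, Tagln and Myh11 were also found in spots off the tissue: at 45.9 CPM on the HFD slide and 44.4 CPM on the NCD slide, beside 64.5 and 24.8 CPM over tissue. A ratio over such spots is reported here for blood genes only.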

How the results depend on the processing

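With 1 section per diet no replicate could be left out, and no paired analysis was possible because each group held 1 sample. Alternatives with 5 or more UMIs of the 3 genes, without the duct-rich spots, and without the gene with most UMIs of a list, were chosen after seeing the data. The duct-rich spots were left out of the muscle-rich side only, which lowers the duct ratio by construction. The contractile log2 ratio of 2.07 was 1.93 at a depth of 10000 UMIs, 2.97 in the top 2% and 1.45 in the top 10% of spots, 1.99 against all other spots, 1.98 ranked by Tagln and Myh11, 2.23 as a mean of CPM per spot, 1.80 without the 10 highest spots, 2.20 with 5 or more UMIs, 2.20 without duct-rich spots and 1.88 without its most abundant gene, Myl9. The collagen ratio of 2.09 was 2.50 and 1.58 in the top 2% and 10%, 1.89 against all other spots, 1.82 with spots thinned before ranking, 1.89 by Acta2 and Myh11, 1.92 by Tagln and Myh11, 2.21 with 5 or more UMIs and 2.01 without duct-rich spots. The bile duct ratio of 2.10 was 1.50 and 1.88 in the top 2% and 10%, 1.53 against all other spots, 1.42 thinned, 2.02 by Acta2 and Tagln, 1.75 by either other pair, 1.88 as a mean per spot, 2.21 with 5 or more UMIs, 0.99 without duct-rich spots and 2.65 without Spp1. The 613 genes at least 2-fold higher became 1101 and 302 in the top 2% and 10%, and 1135 and 171 at filters of 2 and 20 CPM, which by construction test more and fewer genes. The periportal share of 55.5% was 67.2% with 5 or more UMIs. The cause of the other differences was not tested. Over 31 other lists, 8 of 460 values changed sign, in adipocyte (1.98, from 1 UMI, without Cfd), central vein Wnt, hepatocyte and periportal genes. Of 280 values of lists past 2-fold, 266 stayed past it, and of 560 values of the 40 leading and lowest genes, 553 did and none changed sign. Mast cell, adipocyte, mesothelium, neutrophil and nerve lists had the lowest counts.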
